A study of Homo sapiens with 2 samples.

Results

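Genes of the bone morphogenetic protein (BMP) pathway and the ID genes were compared between radiation-adapted and wild-type MHH-ES-1 cells, an established human Ewing sarcoma line. The set was 10 genes listed by name: the ligand genes BMP4 and BMP7, the receptor genes BMPR1A and BMPR2, the signal transducer genes SMAD1 and SMAD5, and ID1, ID2, ID3 and ID4. Every probe that the platform annotation assigns to a listed gene was taken, which gave 15 of the 47323 probes on the array, for 9 of the 10 genes. BMPR1A is not named in the annotation used here and was not analysed. Total RNA was hybridised to Illumina bead arrays, with 1 array for the radiation-adapted cells and 1 array for the wild-type cells. The short name of the radiation-adapted sample includes 4 Gy, and the sources used here give neither the schedule of the irradiation nor whether the adapted cells are a clone or a pool. Both samples are the same line without any labelled genetic change, and the single array of each means that the variation from culture to culture is unknown, so no p-value is given for any gene. The number of arrays limits the precision of every value.

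BMPs are secreted ligands of the transforming growth factor beta superfamily. They bind complexes of type I receptors such as BMPR1A and the type II receptor BMPR2, which phosphorylate SMAD1, SMAD5 and SMAD9, and these enter the nucleus with SMAD4. The ID genes are classic direct targets of this signal in many cell types. They encode helix-loop-helix proteins without a DNA-binding region, which pair with E proteins such as TCF3, TCF4 and TCF12 and keep them from DNA, and they are known for holding progenitor cells back from differentiation. BMPs are also known for their part in the formation of bone, a tissue in which Ewing sarcoma often arises.

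The sequences just before the transcription starts of the ID genes are shown as background. At their brightest probes, these 4 genes did not share 1 direction between the arrays. Each line holds the 250 bases before the start, 5′ to 3′ on the gene's strand, from RefSeq on GRCh38.p14. Capitals mark GTCT, the core of the known SMAD-binding element, on either strand (GTCT or AGAC). The windows are chr20:31605039-31605288 on the + strand for ID1, chr2:8681806-8682055 on the + strand for ID2, chr1:23559502-23559751 on the - strand for ID3 and chr6:19837120-19837369 on the + strand for ID4.
ID1: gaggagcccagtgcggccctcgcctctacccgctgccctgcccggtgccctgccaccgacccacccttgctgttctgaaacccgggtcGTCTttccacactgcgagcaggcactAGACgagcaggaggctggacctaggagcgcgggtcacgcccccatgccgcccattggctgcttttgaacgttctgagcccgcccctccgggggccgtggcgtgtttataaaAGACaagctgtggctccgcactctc
ID2: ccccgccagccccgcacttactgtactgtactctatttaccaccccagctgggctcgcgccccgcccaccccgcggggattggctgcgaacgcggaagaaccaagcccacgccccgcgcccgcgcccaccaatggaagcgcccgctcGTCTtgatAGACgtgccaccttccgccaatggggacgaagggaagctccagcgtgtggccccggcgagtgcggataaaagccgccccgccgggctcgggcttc
ID3: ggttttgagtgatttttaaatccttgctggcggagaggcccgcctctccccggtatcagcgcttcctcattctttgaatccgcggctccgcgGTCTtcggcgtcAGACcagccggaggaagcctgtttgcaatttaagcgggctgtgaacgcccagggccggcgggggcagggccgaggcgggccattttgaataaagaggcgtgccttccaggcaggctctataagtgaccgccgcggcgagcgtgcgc
ID4: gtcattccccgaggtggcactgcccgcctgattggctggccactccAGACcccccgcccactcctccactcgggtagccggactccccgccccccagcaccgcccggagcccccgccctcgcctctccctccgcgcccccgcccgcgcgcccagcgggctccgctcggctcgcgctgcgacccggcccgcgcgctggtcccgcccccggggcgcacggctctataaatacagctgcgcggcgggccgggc
GTCT or AGAC occurred 3 times before ID1, 2 times before ID2, 2 times before ID3 and 1 time before ID4. Of 35116 RefSeq windows of the same length, 77.5% held at least 1 such match, so these letters do not set the ID genes apart. The GC-rich SMAD motif GGCGCC, which reads the same on both strands, was in none of the 4 windows and in 16.4% of all windows. TATAAA, searched on both strands, was found before ID1 (2 overlapping matches, 1 on each strand) and before ID4 (1 match), against 10.7% of all windows. The E-box CANNTG, the element bound by the partners of ID proteins, reads the same on both strands and was found once before ID2 and once before ID4, as CAGCTG. Of all windows, 61.8% held an E-box. The windows were rich in G and C, with 66.0% for ID1, 69.2% for ID2, 62.0% for ID3 and 78.8% for ID4, against a median of 58.0% over all windows. The distal BMP-responsive element known for ID1 lies further upstream than these windows reach. Whether SMAD proteins act on the ID genes through these windows was not tested.

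The median bead signal was 142.4 on the radiation-adapted array and 140.3 on the wild-type array, and a probe was called detected at a detection p-value under 0.01, which 17718 (37.4%) and 16220 (34.3%) probes reached. The lowest detected signal was 158.1 on the radiation-adapted array and 158.2 on the wild-type array, so a signal near these values lay close to background. All 9 Ewing sarcoma markers with a named probe were detected on both arrays. Among them NKX2-2, a transcription factor gene used to identify the tumour, had signals of 6001.3 in radiation-adapted cells and 1943.9 in wild-type cells, and the surface antigen gene CD99 had 2272.0 and 4248.1. The summed signals of these markers were 65732.7 in radiation-adapted cells and 39447.1 in wild-type cells, of which CAV1 and CCND1 made up 77.3% and 67.0%. The leukocyte gene PTPRC, the endothelial genes PECAM1 and CDH5 and the epithelial genes EPCAM and CDH1 were not well above background on either array. Others of those lists were detected: the tight junction gene CLDN5 (endothelial list) had 887.6 in radiation-adapted cells and 198.1 in wild-type cells, and the keratin gene KRT8 had 150.6, not well above background, and 273.7. CD68 (leukocyte list) had 681.6 and 249.8 at its brightest probe, with a ratio of -2.07 at another. Of 9 fibroblast markers, 4 were detected in radiation-adapted cells and 5 in wild-type cells, with summed signals, background included, of 4269.4 and 2996.5. The larger sum in radiation-adapted cells came with THY1 (1509.8 against 145.5 in wild-type cells) and COL1A1 (813.7 against 186.9), while 3 fibroblast markers, DCN, LUM and COL3A1, were at least 2-fold lower in radiation-adapted cells, and the list's median log2 ratio was -0.78. Leukocyte markers detected were 4 of 9 in radiation-adapted cells and 3 of 9 in wild-type cells (summed signals of 3324.3 and 3151.4), endothelial markers 2 of 8 and 1 of 8 (2000.0 and 1213.3), and epithelial markers 0 of 9 and 1 of 9 (1601.4 and 1713.3). The part of these markers in the results below was not tested.

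Values below are bead signals as deposited, followed by log2 values after background correction and quantile normalization. A ratio is the radiation-adapted value minus the wild-type value on that log2 scale, in which an offset of 16 shrinks the ratios of dim probes. Where a probe was detected on 1 array only, the dim side took its own value or the lowest detected value of its array, whichever was greater, and the ratio is a bound. Different probes of 1 gene gave the only spread that could be measured, an SD of 0.45 in the log2 ratio over 2269 genes. It was taken from probes detected on both arrays only, and it leaves out differences between cultures. Of the 10 genes, 7 had a detected probe. Taking the brightest detected probe of each, BMP7 and ID2 were at least 2-fold higher in radiation-adapted cells, ID1 and ID4 were at least 2-fold lower, and BMPR2, SMAD5 and ID3 lay between. Of all 11352 detected named genes, 12.4% passed the 2-fold rule upward, 10.3% downward and 22.6% in either direction. The members' 4 of 7 stands beside that 22.6%, and with 7 genes it is given as a count only. Their median log2 ratio was 0.59, against -0.01 over all detected genes.

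**Figure D1:**
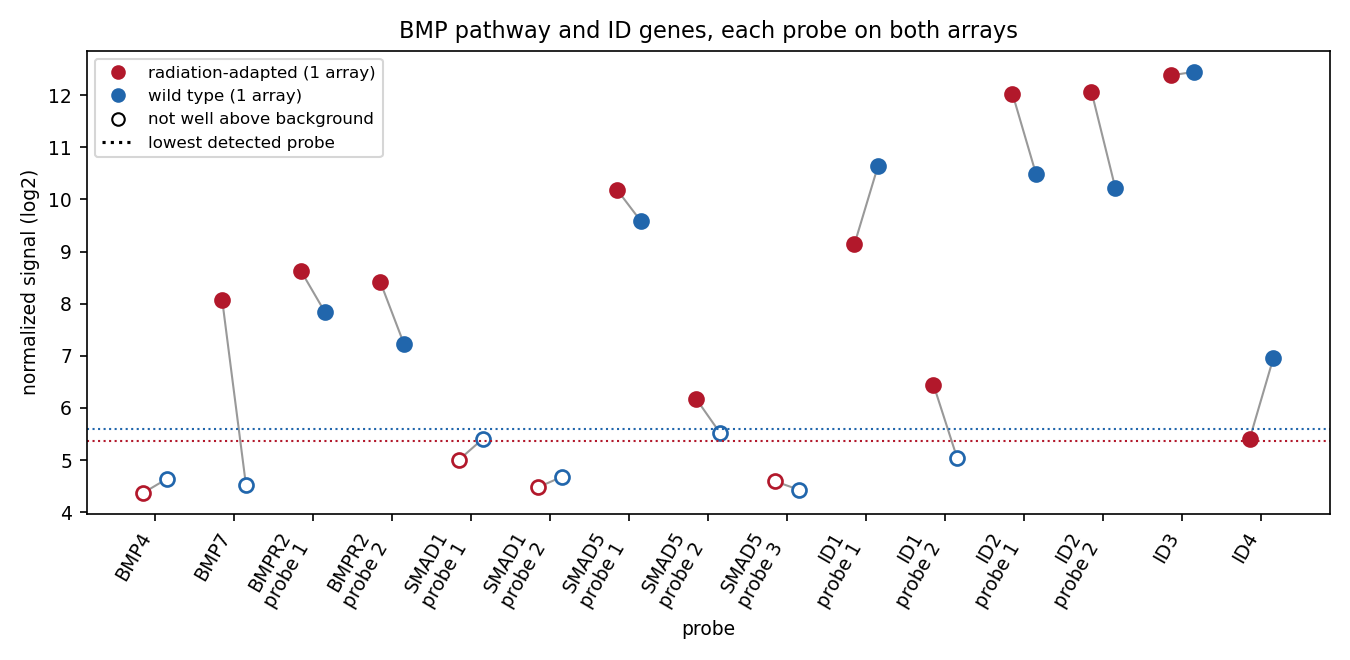
Normalized log2 signal of each of the 15 probes in radiation-adapted cells (red, left of each pair) and wild-type cells (blue, right), 1 array each, with open circles for probes not well above background and dotted lines at the lowest detected value of each array. Both ID2 probes and the BMP7 probe were higher in radiation-adapted cells, the ID1 probes went opposite ways, and the ID4 value of radiation-adapted cells lay at the background line.

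Among the ligands, BMP7 was detected in radiation-adapted cells only. Its probe (ILMN_1741566) had a signal of 414.0 in radiation-adapted cells and 126.1 in wild-type cells, where the detection p-value was 0.627. On the normalized scale these were 8.07 and 4.53. BMP7, a ligand known for bone and kidney development, was at least 5.56-fold higher in radiation-adapted cells (bound of 2.47 on the log2 scale). The SD between probes does not cover a probe detected on 1 array only. The bound depends on the processing, with 1.23 without background correction and 1.88 with an offset of 50, both past 2-fold. The main bound placed BMP7 189th from the top among 11352 genes, bounds included. In bulk RNA, a difference in the share of cells that express a gene cannot be told apart from one in RNA per cell. BMP4, which encodes a ligand active in mesoderm and skeletal development, had signals of 115.7 in radiation-adapted cells and 131.3 in wild-type cells, with detection p-values of 0.932 and 0.419. It was not detectable above background on either array, and no fold is given.

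The receptor gene BMPR2 was detected on both arrays at both of its probes. Its brighter probe had 546.6 in radiation-adapted cells and 317.0 in wild-type cells, and its other probe 494.3 and 247.4. Both were higher in radiation-adapted cells, with log2 ratios of 0.78 (1.72-fold) and 1.19 (2.29-fold), so the 2 probes stand on either side of the 2-fold rule. With median scaling or no scaling between arrays, the brighter probe itself passed that rule, at 1.03 and 1.10.

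The SMAD genes encode the proteins that the activated receptors phosphorylate. SMAD5 had 1315.9 in radiation-adapted cells and 834.6 in wild-type cells at its brightest probe, a log2 ratio of 0.59 (1.51-fold). A second probe was detected in radiation-adapted cells only, with 195.1 against 156.3 in wild-type cells, and gave a bound of 0.57. The third SMAD5 probe was at background on both arrays, with 130.3 in radiation-adapted cells and 119.8 in wild-type cells. The brightest probe was thus short of 2-fold, at 1.3 times the SD between probes, and the second probe was higher in radiation-adapted cells by an amount with no upper limit here. SMAD1, the close paralogue of SMAD5, was not well above background at either probe. Its stronger probe had 146.0 in radiation-adapted cells and 153.3 in wild-type cells, with detection p-values of 0.0675 and 0.0325, and its other probe had 124.1 and 132.8. At a detection p-value under 0.05, the wild-type value would count as detected, and SMAD1 would enter with a bound of -0.34.

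ID2 was higher in radiation-adapted cells at both probes. The signals were 4112.7 in radiation-adapted cells and 1496.6 in wild-type cells at the first probe (ILMN_1793990), and 4214.6 and 1271.9 at the second (ILMN_2086095). The log2 ratios were 1.55 (2.94-fold) and 1.84 (3.59-fold), 3.4 times the SD between probes at the first. The first placed ID2 646th from the top among 11352 genes. Over the 9 processing alternatives the ratio of ID2 stayed between 1.46 and 1.70, far above background on both arrays. ID3, by contrast, had 5087.7 in radiation-adapted cells and 6048.7 in wild-type cells at its single probe. After normalization the log2 values were 12.38 and 12.45, a ratio of -0.07 that is smaller than the SD between probes, and the alternatives gave -0.32 to -0.06.

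The probes of ID1 gave opposite directions. The brighter one (ILMN_1664861) had 720.3 in radiation-adapted cells and 1684.8 in wild-type cells, a log2 ratio of -1.51 (2.85-fold lower in radiation-adapted cells). The dimmer one (ILMN_1665832) had 213.1 in radiation-adapted cells and 144.3 in wild-type cells, where it was not well above background (detection p-value of 0.0935), and was at least 1.81-fold higher (bound of 0.86). Both probes carry the same RefSeq transcript record in the platform annotation, and their sequences were not used here, so which ID1 transcripts each one reads was not tested. A spread of 2.37 between the probes of 1 gene, bounds included, was reached or passed by 59 of 2953 genes (2.0%) with at least 2 detected probes. The mean of the ratio at the brighter probe and the bound at the dimmer one was -0.33. It is itself a bound, and the true mean could be higher. The call of ID1 as lower therefore rests on its brighter probe.

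ID4 has 1 probe and was dim on both arrays. Its signal was 159.7 in radiation-adapted cells and 223.5 in wild-type cells, with log2 values of 5.40 and 6.95 and a ratio of -1.55 (2.92-fold lower in radiation-adapted cells). The radiation-adapted value passed the detection limit narrowly, with a detection p-value of 0.00649, and lay just above the lowest detected log2 value of that array, 5.36. Without background correction the ratio was -0.60, short of 2-fold. Across the ID family, 1 of 4 genes was at least 2-fold higher and 2 were lower, beside 12.4% and 10.3% of all genes. With 4 genes this is a count only, and the median of -0.79 summarises genes with ratios in both directions.

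**Figure D2:**
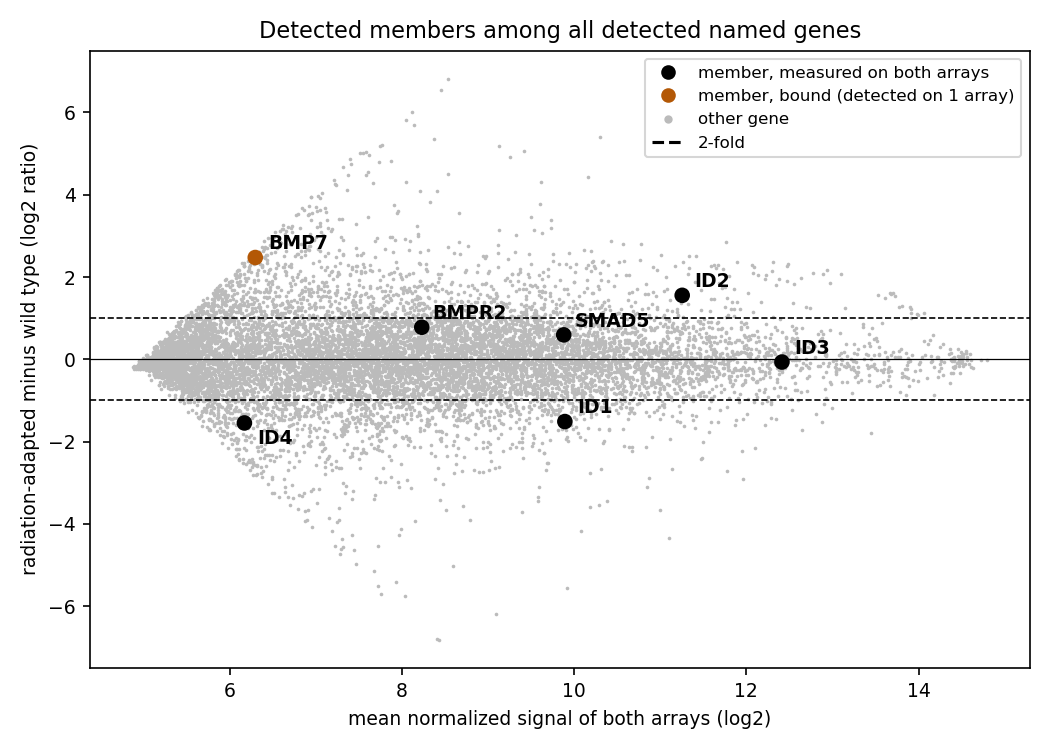
Log2 ratio (radiation-adapted minus wild type) against mean normalized log2 signal for all 11352 detected named genes, with the 7 detected members marked and dashed lines at 2-fold. ID2 (1.55) and BMP7 (a bound of 2.47) lie above the upper line, ID1 (-1.51, at its brighter probe) and ID4 (-1.55) below the lower one, and ID3 (-0.07) at the middle of the cloud.

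The members lie apart in the genome, apart from ID1 and BMP7 on chromosome 20 and ID2 and BMPR2 on chromosome 2. For each detected member the 10 detected named genes on either side, in RefSeq order, were taken after the member values had been seen. The median log2 ratio of these 20 neighbours was 0.11 around ID2, 0.10 around ID1, 0.00 around ID4, 0.03 around ID3, -0.11 around BMP7, 0.10 around BMPR2 and 0.18 around SMAD5. Each of these medians was near that of all genes, but single neighbours ran from -5.71 (around BMP7) to 6.01 (around ID3). Of each 20 neighbours, those past 2-fold were 1 higher and 2 lower around BMP7, 4 and 2 around BMPR2, and 2 and 1 around SMAD5. Around the ID genes they were 3 higher and 1 lower for ID1, 3 and 1 for ID2, 4 and 0 for ID3, and 3 and 4 for ID4. The shares over all detected genes were 12.4% higher and 10.3% lower, and counts out of 20 are given as counts only. Whether neighbours changed along with a member was not tested. The antisense transcript ID2-AS1 had 156.3 in radiation-adapted cells and 171.8 in wild-type cells. Its detection p-values were 0.0117 and 0.0026, so that it was detected in wild-type cells only. Its plain log2 difference was -0.72, to which the rule for bounds was not applied. SMAD5-AS1 was at background on both arrays. Both antisense genes were chosen after their values were seen.

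**Figure D3:**
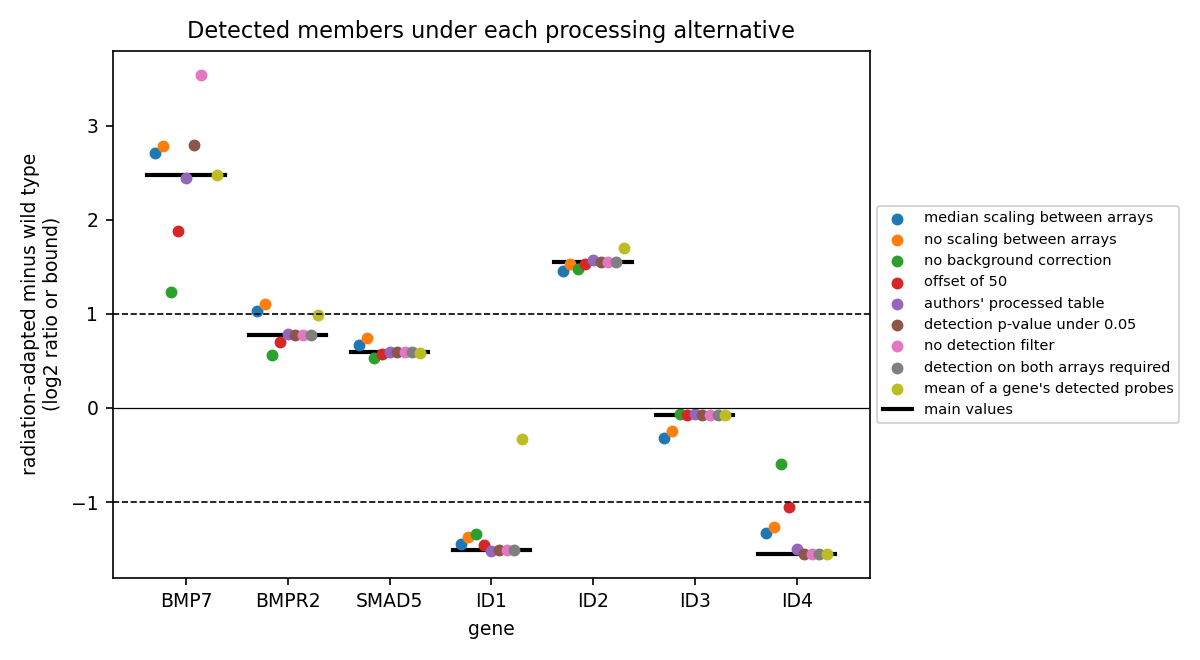
Log2 ratio, as radiation-adapted minus wild-type value, of the 7 detected members under the main values (black bars) and each of 9 processing alternatives (coloured points), with dashed lines at 2-fold. ID2 stayed between 1.46 and 1.70, whereas ID1 came to -0.33 (a bound) with the mean of its probes and ID4 to -0.60 without background correction.

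The remaining pathway was described from lists of ligands, receptors, SMADs and cofactors, antagonists, processing and turnover genes, BMP-induced genes and ID partners, 121 different genes in all. Of the 74 detected, 13 (17.6%) passed 2-fold upward and 9 (12.2%) downward, against 12.4% and 10.3% of all genes, and their median log2 ratio was 0.04. Of these 22 calls, 13 fell short of 2-fold without background correction and 4 with an offset of 50, and the genes concerned are given with each list. The shares of all genes, 12.4% and 10.3%, stand beside every list below, and lists this small allow a count only. Among 6 other detected ligands, 1 was higher and 2 were lower at their brightest probes. GDF11 had a log2 ratio of 0.02 at its brightest probe but a ratio or bound of -2.02 at its other one. With the mean of probes, 3 ligands were lower. BMP6, a ligand known for iron regulation and bone, had 299.2 in radiation-adapted cells and 169.4 in wild-type cells and was 2.67-fold higher. BMP2, the close relative of BMP4 and a strong inducer of bone, had 170.8 and 300.9 and was 4.10-fold lower in radiation-adapted cells. INHBE, which encodes an activin subunit, had 197.0 and 534.3 and was 6.23-fold lower. Without background correction BMP6 had a log2 ratio of 0.67 and BMP2 of -0.97, both short of 2-fold, and INHBE of -1.61.

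Of 10 other detected receptors and co-receptors, 1 was at least 2-fold higher and 0 were lower (median 0.39). That median counts as values the bounds of BMPR1B (0.50), TGFBR3 (0.51) and HJV (0.05), detected in radiation-adapted cells only. RGMA, which encodes a membrane-anchored BMP co-receptor, had 282.8 in radiation-adapted cells and 163.0 in wild-type cells and was 2.78-fold higher. Its wild-type signal lay near the detection limit, and its ratio was 0.65, short of 2-fold, without background correction. RGMB, its paralogue, had a log2 ratio of -0.84. The type I receptor gene ACVR1 had a ratio of 0.45, and BAMBI, a pseudoreceptor that blocks BMP signals, had 1576.9 in radiation-adapted cells and 1567.7 in wild-type cells (ratio of -0.07). Of 9 other SMADs and cofactors, 2 were at least 2-fold higher, both encoding histone acetyltransferases that act as coactivators. EP300 had 535.6 in radiation-adapted cells and 240.4 in wild-type cells (2.70-fold), and CREBBP 848.3 and 421.6 (2.01-fold, with a bound of 0.31 at its other probe). Neither passed 2-fold without background correction (0.96 for EP300 and 0.82 for CREBBP). CREBBP also did not with an offset of 50 (0.94) or the mean of its probes (0.66, with the bound counted as a value). The inhibitory SMAD7 had ratios of -0.89 and -1.03 at its probes, SMAD9, the third BMP-activated SMAD, had -0.77 and -0.75, SMAD6 had 0.31 and the common partner SMAD4 had 0.39. At the probes used none of these SMAD genes passed 2-fold.

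Of 9 detected antagonists, 2 were at least 2-fold higher and 1 was lower (median 0.18). FSTL1, which encodes a secreted glycoprotein of the follistatin family, had 1818.6 in radiation-adapted cells and 461.1 in wild-type cells and was 4.35-fold higher. FSTL3, an activin-binding relative, had 320.1 and 176.5 (2.60-fold). SOSTDC1, a secreted antagonist of BMP and Wnt ligands, had 170.9 in radiation-adapted cells and 240.1 in wild-type cells and was 2.77-fold lower. Without background correction FSTL3 had 0.69 and SOSTDC1 -0.63, both short of 2-fold, and FSTL1 had 1.84. NOG, which encodes the BMP antagonist noggin, had 159.3 in radiation-adapted cells and was not well above background in wild-type cells (126.5). It has no fold, since its bound lay on the wrong side of 0. The same held for GREM1, with 160.3 in radiation-adapted cells and 157.9 in wild-type cells. The list median of 0.18 counts their bounds (-0.21 for NOG and -0.18 for GREM1) and that of CRIM1 (0.87) as values, although each true ratio could be higher. Of 13 processing and turnover genes, 2 were at least 2-fold higher and 0 lower (median -0.05). They were NEDD4L, a ubiquitin ligase gene (2.21-fold), and BMP1, whose product is a protease that cleaves procollagen and the antagonist chordin and is no BMP ligand despite its name (2.18-fold). Both calls were lost without background correction (0.52 for each) and with an offset of 50 (0.84 for each). At the other end, FKBP1A, whose product binds type I receptors, had a ratio of -0.90 at its brightest probe and of -0.11 to 1.03 at its other probes.

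**Figure D4:**
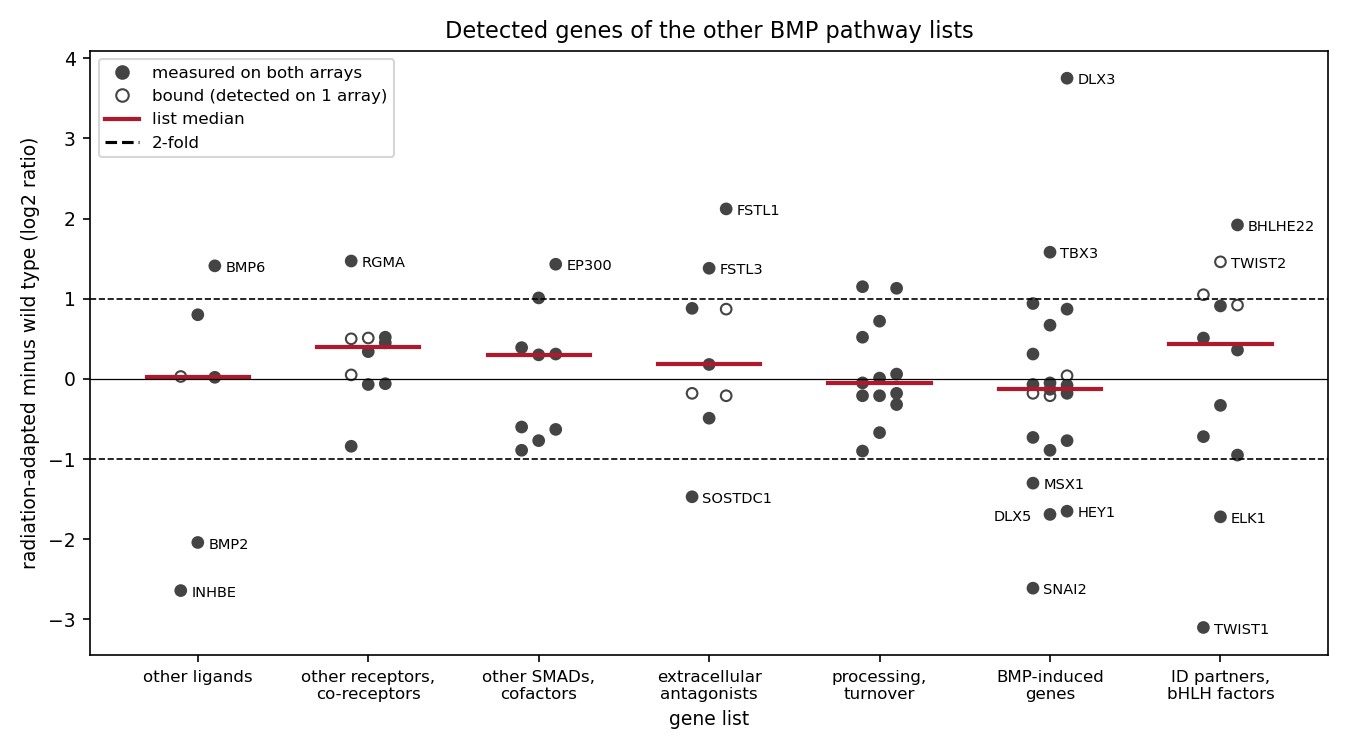
Log2 ratio, as radiation-adapted minus wild-type value, of each detected gene in the other pathway lists, with open circles for bounds, red bars for list medians and dashed lines at 2-fold. The medians, bounds included, run from -0.13 for the BMP-induced genes to 0.43 for the ID partners, and most lists hold genes on both sides of 0. The bounds among the ID partners belong to genes detected in radiation-adapted cells only.

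Another list held genes known to be induced by BMP in other cells. Of 21 detected, 2 were at least 2-fold higher and 4 lower, with a median of -0.13. Of all detected genes, 12.4% passed 2-fold upward and 10.3% downward. The list shares SMAD6, SMAD7, SMAD9, BAMBI, NOG and GREM1 with the lists above. Its median too includes the bounds of NOG and GREM1, and that of DLX2 (0.04). The homeobox gene DLX3 had 1041.8 in radiation-adapted cells and 172.0 in wild-type cells and was 13.5-fold higher. Its wild-type signal lay near the detection limit, and the size of its ratio depends on the processing. The log2 ratio was 3.75, against 2.47 without background correction and 3.2 with an offset of 50. The T-box gene TBX3 had 437.4 and 199.6 (2.98-fold higher). SNAI2, which encodes a repressor of epithelial genes, had 182.2 in radiation-adapted cells and 451.4 in wild-type cells and was 6.12-fold lower, with a ratio of -2.45 at its other probe. DLX5, a homeobox gene of bone formation, had 721.8 and 1898.3 (3.23-fold lower), HEY1 had 169.7 and 254.1 (3.13-fold lower), and the homeobox gene MSX1 had 519.5 and 982.1 (2.47-fold lower). Without background correction TBX3 (0.93) and HEY1 (-0.72) fell short of 2-fold, and the other 4 did not.

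ID proteins act by pairing with other factors, and 12 genes of that partner list, which also holds ETS and PAX factors and tissue-restricted basic helix-loop-helix factors, were detected. Of these, 3 were at least 2-fold higher and 2 lower (median 0.43). All 12 were detected in radiation-adapted cells but only 9 in wild-type cells. TWIST2, OLIG2 and NHLH2 thus entered only through the array where they were higher. The median counts their bounds (1.46, 1.05 and 0.92) as values, so its sign is not a result about the partners. ETS1 had a log2 ratio of 0.51 at its brightest probe but a ratio or bound of 2.78 at its other one. The mean of probes gave 4 higher genes. BHLHE22, which encodes a neural basic helix-loop-helix factor, had 2330.8 in radiation-adapted cells and 656.1 in wild-type cells and was 3.78-fold higher. TWIST2 had 262.6 in radiation-adapted cells and 132.8 in wild-type cells and was at least 2.75-fold higher, and OLIG2, a glial lineage factor gene, had 226.9 and 124.4 and was at least 2.07-fold higher. TWIST1, the mesodermal paralogue of TWIST2, had 409.8 in radiation-adapted cells and 2387.2 in wild-type cells and was 8.55-fold lower. ELK1, an ETS factor gene, had 648.4 and 1707.5 and was 3.29-fold lower. TWIST2 (0.60) and OLIG2 (0.40) fell short of 2-fold without background correction, and OLIG2 (0.70) also with an offset of 50. The E protein genes, which encode the direct partners of ID proteins, did not pass 2-fold: TCF3 had a ratio of 0.91, TCF4 of 0.36, and TCF12 of -0.95 at its brightest probe.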

How the data were processed

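Per the labels, total RNA was extracted with Trizol and amplified into biotinylated cRNA. The deposited table holds for each probe a bead intensity, without background subtraction or scaling as the values show, and a detection p-value, per the file headers. The authors also deposited a processed intensity table, background-subtracted as its negative values show. Whether it was quantile-normalized was not tested. No source used here names the software behind either table. Signals were corrected and normalized with neqc of limma 3.58.1 in R 4.3.3 (negative controls estimated through the detection p-values, offset of 16, quantile normalization, log2). That step was tested on simulated data for bright probes only, so its behaviour at dim probes was not tested. Probes with 1 gene in the platform annotation (30113) were used, 8 with several were left out, and RefSeq changed 0 symbols. Each gene took its brightest detected probe. The step used on the authors' table was log2 of the value, floored at 0, plus 16. With 1 array per group no test was run. Genes were counted at 2-fold.

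The members and lists were chosen with earlier results of these data known. All members are named, and from each list the genes past 2-fold, up to 4 in each direction, or else the largest ratio. BAMBI, ACVR1, SMAD4, SMAD6, SMAD9, NOG, GREM1, GDF11, ETS1 and the TCF genes were added after their values were seen. With 2 arrays, no gene could be named for a like pattern.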

Additional observations from a re-analysis of the deposited data

How the results depend on the processing

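For 23 results, 206 values were recomputed under 9 alternatives. Of these, 176 moved by less than 0.45, the SD between a gene's probes, or, for counts, by no more than 1.5 times. A change of sign could be scored only for the 4 members past 2-fold, and 0 occurred. The settings that alter only the detection rule cannot move a member measured on both arrays, so part of the 176 was fixed in advance. BMPR2, SMAD5, ID2 and ID3 stayed within 0.45 of their main values throughout. BMP7 had 1.23 without background correction, 1.88 with an offset of 50 and 3.54 without a detection filter, and gave no value with detection required on both arrays. ID4 had -0.60 without background correction and -1.05 with an offset of 50, and ID1 had -0.33, a bound, with the mean of its detected probes. Members at least 2-fold higher numbered 1 with detection required on both arrays, 3 with median scaling and 3 with no scaling, against 2 in the main values. Those at least 2-fold lower numbered 1 without background correction and 1 with the mean of probes, against 2.

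Without background correction, which compresses all ratios, the genes at least 2-fold higher numbered 0 among other ligands, 0 among receptors, 0 among SMADs and cofactors, 1 among antagonists, 0 among processing genes, 1 among BMP-induced genes and 1 among ID partners, and the lower ones 1 among other ligands and 0 among antagonists. Median scaling gave 2 higher ligands, 4 higher antagonists, 4 higher BMP-induced genes and 1 lower processing gene, and no scaling gave 2 higher ligands, 4 higher antagonists, 5 higher BMP-induced genes and 5 higher ID partners. These scalings moved the median of all genes to 0.16 and 0.23, against -0.01, and the share of higher genes among those past 2-fold to 67.0% and 71.7%, against 54.6%. An offset of 50 gave 1 higher SMAD or cofactor and 0 higher processing genes, the mean of probes 1 higher SMAD or cofactor, and detection on both arrays 1 higher ID partner. Over all genes, 688 were at least 2-fold higher and 557 lower without background correction, against 1403 and 1168. No paired analysis was possible because each group has 1 array, and none could be left out.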
